A study of Mus musculus with 14 samples.

Results

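The cysteine cathepsins are lysosomal proteases of the papain family, and the 10 genes described here were taken by symbol: Ctsl, Ctsb, Ctsc, Ctsf, Ctsh, Ctsk, Ctso, Ctss, Ctsw and Ctsz. All 10 were found among the 55416 genes of each table. The rule matches names and uses no measured value, but the list was drawn up with earlier results of these data known. The study asked which genes could serve as targets against cachexia, the muscle wasting of cancer, and against muscle damage during immune therapy, and its title names cathepsin L. RNA sequencing covered whole lung and the gastrocnemius muscle of the calf, from C57BL/6 (C57BL/6NCrlOri) males that were 6 to 8 weeks old. The libraries titled TB are read here as tumour-bearing, that is, from mice given KrasIKKaL cells through the trachea, and those titled CON as control. Muscle had 3 libraries of each kind, and lung had 3 control and 5 tumour-bearing. The labels do not give the treatment of the control mice, and a single cell line, KrasIKKaL, made the tumours. Nor do they state that each library of a group is a separate animal, so a p-value here measures the spread between these samples only, and that spread may be technical.

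Cysteine cathepsins are made as inactive precursors, carry a mannose 6-phosphate tag that sorts them to the lysosome, and become active when acid removes the propeptide. Cystatins and stefins bind the active site and hold escaped enzyme in check. Ctsl belongs to the genes that are induced when skeletal muscle wastes, while Ctss, Ctsc and Ctsw are best known from immune cells, Ctsk from osteoclasts and Ctsh from the surfactant-producing alveolar type 2 cells of the lung.

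The promoters of the 4 members called in lung are shown because these members moved in opposite directions there, Ctsl and Ctsz up, Ctsf and Ctso down. Each run covers 250 bases before and 50 bases after the annotated start in RefSeq (GRCm38.p6), and 7 of the 10 members had an entry. Capitals mark matches, searched on both strands, to an E-box (CACGTG), a C/EBP-type site (TTNNGCAA), a FoxO-type site (GTAAACA) and an interferon-type element (GAAA, any 2 bases and GAAA again). The windows are chr13:64370471-64370770, minus strand for Ctsl, chr2:174438990-174439289, minus strand for Ctsz, chr19:4854915-4855214, plus strand for Ctsf and chr3:81932351-81932650, plus strand for Ctso.
Ctsl: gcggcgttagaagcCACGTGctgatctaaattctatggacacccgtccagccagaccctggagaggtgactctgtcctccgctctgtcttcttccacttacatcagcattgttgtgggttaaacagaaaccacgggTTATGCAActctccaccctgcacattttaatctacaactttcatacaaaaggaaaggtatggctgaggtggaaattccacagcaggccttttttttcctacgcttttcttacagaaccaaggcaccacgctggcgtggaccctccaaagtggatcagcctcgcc
Ctsz: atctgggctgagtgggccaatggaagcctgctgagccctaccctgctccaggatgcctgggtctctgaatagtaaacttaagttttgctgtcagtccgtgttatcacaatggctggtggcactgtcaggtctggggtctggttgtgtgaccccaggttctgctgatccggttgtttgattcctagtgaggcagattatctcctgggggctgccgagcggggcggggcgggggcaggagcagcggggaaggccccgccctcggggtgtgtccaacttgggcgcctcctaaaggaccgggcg
Ctsf: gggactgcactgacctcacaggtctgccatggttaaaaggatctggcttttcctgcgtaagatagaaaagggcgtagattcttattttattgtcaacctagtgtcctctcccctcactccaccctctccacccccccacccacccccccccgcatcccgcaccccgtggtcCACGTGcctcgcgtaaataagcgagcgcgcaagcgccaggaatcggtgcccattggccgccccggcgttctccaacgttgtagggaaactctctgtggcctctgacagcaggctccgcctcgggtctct
Ctso: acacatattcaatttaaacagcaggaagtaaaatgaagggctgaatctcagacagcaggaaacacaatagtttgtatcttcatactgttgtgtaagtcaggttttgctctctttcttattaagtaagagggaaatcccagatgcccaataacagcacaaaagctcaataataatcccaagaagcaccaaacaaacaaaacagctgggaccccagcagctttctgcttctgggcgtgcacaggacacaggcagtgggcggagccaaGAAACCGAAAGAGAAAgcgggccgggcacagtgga
The Ctsl window held 1 E-box at position -236 from the start and 1 C/EBP-type match at -114. The Ctsf window held 1 E-box at -79, and the Ctso window 2 overlapping interferon-type matches at 16 and 22. The Ctsz window held no match, and a FoxO-type match was found in none of the 7 windows. Among 32851 RefSeq promoter windows of this length, 7.15% held the E-box, 10.8% the C/EBP-type site, 3.44% the interferon-type element and 3.65% the FoxO-type site. An E-box so stood both in Ctsl, which rose in lung, and in Ctsf, which fell.

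Levels are given as counts-per-million (CPM) of library totals that were TMM-scaled within each tissue. CPM values of muscle and of lung were not scaled to each other, so they do not measure a difference between the tissues. Changes are given as the log2 ratio of tumour-bearing to control with its standard error (SE). Calls were made at a Benjamini-Hochberg adjusted p below 0.05 in edgeR's quasi-likelihood test over all genes. Libraries held 32476212 to 44169437 counts in muscle and 47947379 to 61087330 in lung, so 3 counts, the limit that a count of 0 allows, came to 0.0491 to 0.0924 CPM, for counting error only. Markers fitted the tissue labels: summed markers of muscle fibres stood at 71808 to 82609 CPM in control muscle and at no more than 35.5 CPM in any lung library, and the surfactant gene Sftpc was at 0 in muscle. Mitochondrial RNA made up 16.2% to 34.1% of counts in control muscle and 17.6% to 24.0% in tumour-bearing muscle. Cell type markers differed widely between control and tumour-bearing lung. Alveolar type 2 markers fell from 22476 to 24495 CPM in control libraries to 160 to 1261 CPM (9 of 9 lower), endothelial markers from 2376 to 2534 CPM to 96.4 to 125 CPM (5 of 5 lower), and epithelial keratin and adhesion genes rose from 1227 to 1254 CPM to 9850 to 18425 CPM (5 of 5 higher). In bulk tissue, fewer cells of a type and less RNA per cell cannot be told apart.

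In tumour-bearing muscle, 1 member rose, Ctsl, and 1 fell, Ctso, of 9 members tested, where 15.3% of all 14373 tested genes were called (8.53% higher, 6.75% lower). In tumour-bearing lung, Ctsl and Ctsz rose and Ctsf and Ctso fell, 4 of 10 members tested against 59.7% of all 19300 tested genes (30.4% higher, 29.3% lower). The median change of the members was 0.19 in muscle (-0.03 over all genes tested) and -0.04 in lung (0.07 over all genes tested), so as a group they were not displaced in 1 direction. The groups did not overlap for 7 of 9 members in muscle, against 43.1% of all genes, and for 4 of 10 in lung, against 63.0% of all genes. In muscle, Ctsl, Ctsz, Ctss and Ctsf lay above every control library (21.1% of all genes did) and Ctso, Ctsc and Ctsh below (22.0%). In lung, the 2 that lay above were Ctsl and Ctsz (30.9% of all genes), and the 2 below were Ctsf and Ctso (32.1%).

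**Figure D1:**
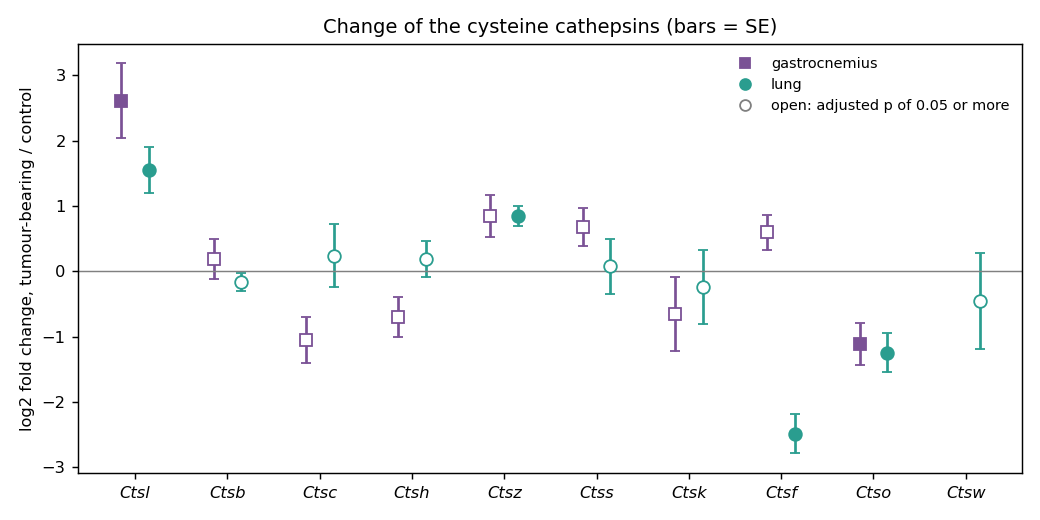
Log2 fold change of each cysteine cathepsin in tumour-bearing over control libraries (y axis) by gene (x axis), squares for gastrocnemius (n = 3 and 3) and circles for lung (n = 3 and 5), bars showing SE and open symbols an adjusted p of 0.05 or more. Ctsl is the highest point in both tissues, at 2.61 in muscle and 1.55 in lung, and Ctsf in lung the lowest, at -2.49; Ctsw was not tested in muscle.

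Ctsl (ENSMUSG00000021477) encodes cathepsin L, a broad endopeptidase of the lysosome. In muscle its level was 40.8, 39.6 and 28.9 CPM in control libraries 1 to 3 and 435, 76.2 and 156 CPM in tumour-bearing libraries 1 to 3. Every tumour-bearing library lay above every control library, but tumour-bearing library 1 was far above the other 2, so that the group mean of 222 ± 189 CPM (SD, n = 3) had an SD close to its own size, against 36.4 ± 6.56 CPM (n = 3) in controls. The fitted level was 6.10-fold higher (log2 2.61, SE 0.57, adjusted p = 0.0233). Without tumour-bearing library 1 the log2 change was 1.69 and the call held (adjusted p = 0.0257). Without control library 1, 2 or 3 it was 2.71, 2.67 or 2.46 and no longer called (adjusted p = 0.0737, 0.0858 and 0.112), and on log2(TPM + 1) it was 2.74, also not called (adjusted p = 0.105).

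The same library stood apart in which Ctsl transcripts its reads were assigned to. The mean Ctsl transcript length that the deposited tables give, weighted by the abundance of each transcript, was 1979, 2005 and 2070 bases in control muscle, 2004 and 1976 bases in tumour-bearing libraries 2 and 3, and 971 bases in tumour-bearing library 1. Ctsl has 7 transcripts of 364 to 6168 bases in the GENCODE M21 annotation, which gave the tables' length, within 0.5 bases, for 31229 of 31330 single-transcript genes (99.7%). The length in tumour-bearing library 1 was 0.484 of the mean of the other 5 muscle libraries, and 0.975% of 6670 genes with several transcripts and at least 100 counts in every muscle library had a ratio as low or lower there. TPM divides by this length and is not TMM-scaled, and for tumour-bearing library 1 the gap to controls was wider in TPM than in CPM. Control muscle had 22.8, 14.9 and 7.80 TPM and tumour-bearing muscle 580, 35.1 and 46.4 TPM. The tables give no counts per transcript, so which of the 7 was used is not resolved here.

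**Figure D2:**
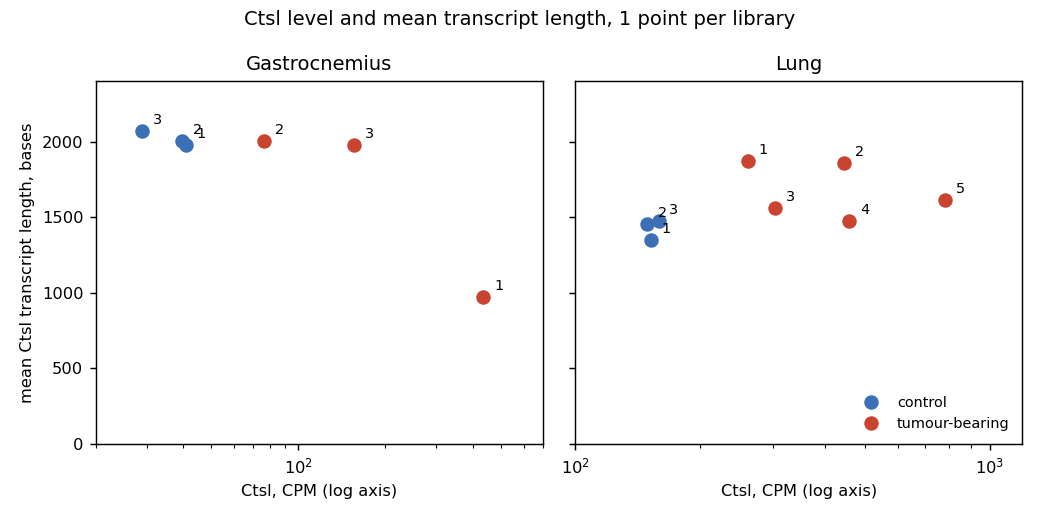
Ctsl level in CPM (x axis, log scale) against its mean transcript length in bases (y axis), 1 point per library numbered by replicate, gastrocnemius left and lung right, blue for control and red for tumour-bearing. Tumour-bearing muscle library 1 lies alone at 435 CPM and 971 bases, while the other 5 muscle libraries lie between 1976 and 2070 bases.

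In lung, Ctsl stood at 152, 149 and 159 CPM in controls and at 261, 445, 303, 458 and 780 CPM in tumour-bearing libraries 1 to 5. The lowest tumour-bearing library was above the highest control, and library 5 was the highest. The mean went from 153 ± 4.87 CPM (SD, n = 3) to 449 ± 204 CPM (n = 5), a 2.93-fold rise (log2 1.55, SE 0.35, adjusted p = 0.00440). The call held without any single library, with log2 changes from 1.29 to 1.71. The direction of the length difference was opposite to that in muscle library 1: mean transcript length was 1348, 1453 and 1474 bases in control lung and 1871, 1856, 1560, 1473 and 1615 bases in tumour-bearing lung, with library 4 within the control range. In TPM the levels came closer, at 196, 169 and 178 TPM in controls and 170, 283, 252, 373 and 538 TPM in tumour-bearing libraries. Library 1 lay within the control range. TPM divides by length but is also not TMM-scaled, so length is not the only difference between the scales. Ctsz, with a fixed length of 1441 bases, had lung group means of 109 and 196 CPM but 127 and 167 TPM. On log2(TPM + 1), the change was 0.73 and was not called (adjusted p = 0.0799), on a scale where the median of all genes lay at -0.23.

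Ordered by mean TPM, Ctsl was highest in tumour-bearing lung (323 ± 140 TPM, SD, n = 5), then in tumour-bearing muscle (220 ± 311 TPM, n = 3), control lung (181 ± 13.9 TPM, n = 3) and control muscle (15.2 ± 7.50 TPM, n = 3). The ranges of neighbours in this order overlapped except between control lung and control muscle. On this scale tumour-bearing muscle library 1 stood above every lung library, with a value that rests on its mean length of 971 bases. Libraries 2 and 3 stood below every lung library. The order between tissues depends on the scaling. In the TMM fit of all 14 libraries, control lung exceeded control muscle by log2 0.57, which edgeR's quasi-likelihood test did not call (adjusted p = 0.327).

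Ctsb and Ctsz encode the carboxypeptidase-type members, cathepsin B, which also cleaves within chains, and cathepsin Z, which removes single residues from the carboxyl end. Ctsb stood at 180, 164 and 149 CPM in control muscle, 262, 157 and 142 CPM in tumour-bearing muscle, 435, 449 and 451 CPM in control lung and 351, 383, 397.5, 455 and 397 CPM in tumour-bearing lung. The groups overlapped in both tissues, and no change was called (muscle log2 0.19, SE 0.30, adjusted p = 0.684, and lung log2 -0.17, SE 0.14, adjusted p = 0.341). In muscle its highest library was again tumour-bearing library 1, without which the change was -0.12. On log2(TPM + 1), the only 1 of 19 alternatives to call it, Ctsb was lower in tumour-bearing lung by a log2 change of -0.69 (limma-trend adjusted p = 7.54e-04). The median of all genes lay at -0.23 on that scale.

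Ctsz was at 103, 111 and 114 CPM in control lung and at 155, 192, 206, 209 and 218 CPM in tumour-bearing lung. The 5 tumour-bearing libraries lay close together and all above the controls, a 1.80-fold rise (log2 0.85, SE 0.15, adjusted p = 0.00133) that was called under all 19 alternatives. In muscle, Ctsz was at 32.4, 38.7 and 39.9 CPM in controls and at 60.3, 44.3 and 95.2 CPM in tumour-bearing libraries. The groups did not overlap and the log2 change of 0.85 had the lung's size, but with an SE of 0.32 it did not pass (adjusted p = 0.0946). It passed without tumour-bearing library 2 (log2 1.09, adjusted p = 0.0261) and in 2 of 17 alternatives in all. Ctsz has a single annotated transcript of 1441 bases, so no shift between transcripts enters its values.

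**Figure D3:**
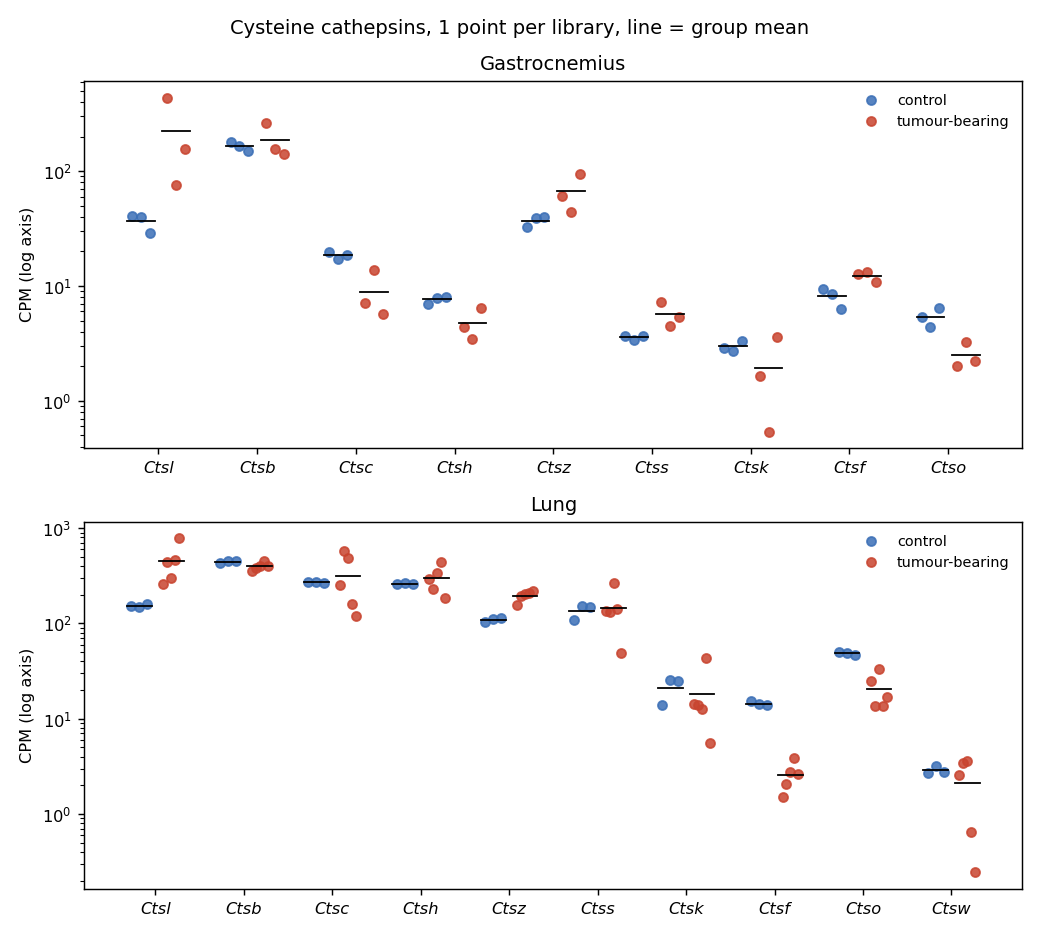
CPM of the cysteine cathepsins (y axis, log scale) by gene (x axis) in gastrocnemius (top) and lung (bottom), 1 point per library, blue for control and red for tumour-bearing, lines at group means. Groups do not overlap in either panel for Ctsl, Ctsz, Ctsf and Ctso, with Ctsf above its controls in muscle and below them in lung, and they overlap in both for Ctsb and Ctsk; Ctsw, with at most 6 counts in a muscle library, is drawn for lung only.

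Ctsf encodes cathepsin F, which can degrade the invariant chain of MHC class II in macrophages. In lung it went from 15.2, 14.2 and 13.8 CPM in controls to 1.52, 2.08, 2.73, 3.89 and 2.62 CPM in tumour-bearing libraries. All 5 tumour-bearing libraries were far below the lowest control, a 5.61-fold lower level (log2 -2.49, SE 0.30, adjusted p = 1.29e-04), called under all 19 alternatives with changes from -2.81 to -2.21. Its mean transcript length was also lower without overlap, from 1761 to 1797 bases in controls to 1425 to 1554 bases in tumour-bearing lung, where 26.4% of 14637 multi-transcript genes had lengths without overlap. In muscle, Ctsf was at 9.39, 8.54 and 6.35 CPM in controls and at 12.8, 13.2 and 10.8 CPM in tumour-bearing libraries, above every control but not called (log2 0.60, SE 0.27, adjusted p = 0.144). The tumour effect on Ctsf differed between the tissues: lung minus muscle was -3.09 on the log2 scale (SE 0.41, adjusted p = 7.30e-05 for the interaction). Ctsf was the only member called in that test, where 35.6% of 19834 genes were called (16.6% higher and 19.0% lower in lung), and it was called in 24 of 24 alternatives.

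Ctso encodes cathepsin O, among the least studied members. It was the single member called lower in both tissues. Lung controls had 49.8, 48.6 and 47.1 CPM and tumour-bearing libraries 24.7, 13.6, 33.4, 13.7 and 16.8 CPM, all below the controls, with library 3 the nearest to them (2.37-fold lower, log2 -1.25, SE 0.30, adjusted p = 0.00610). In muscle the counts were lower, at 5.35, 4.38 and 6.46 CPM in controls and 2.01, 3.27 and 2.20 CPM in tumour-bearing libraries. These groups did not overlap either (2.16-fold lower, log2 -1.11, SE 0.32, adjusted p = 0.0484). The muscle call stood just under the threshold and was lost without any 1 control library (adjusted p = 0.131, 0.129 and 0.169), without tumour-bearing library 1 or 3 (0.0918 and 0.0912) and on log2(TPM + 1) (0.287). The lung minus muscle difference was -0.15 (SE 0.47).

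Ctsc, Ctss and Ctsw are the members tied to immune cells. Ctsc encodes cathepsin C, a dipeptidyl peptidase that activates the granule serine proteases. In tumour-bearing lung its libraries scattered more than its controls, at 251, 574, 482, 160 and 121 CPM against 272, 272 and 264 CPM. Libraries 2 and 3 lay above and libraries 1, 4 and 5 below all controls (log2 0.24, SE 0.48, adjusted p = 0.692). In muscle it went from 19.6, 17.2 and 18.5 CPM to 7.10, 13.8 and 5.71 CPM, below every control in all 3 libraries, and did not pass (log2 -1.05, SE 0.35, adjusted p = 0.0698). It passed without tumour-bearing library 2 (log2 -1.50, adjusted p = 0.00767), with DESeq2 (0.0343), with no filter on low counts (0.0318) and with a block for replicate numbers (0.0358). Of the granule serine proteases that Ctsc activates, 3 were tested in muscle, where Mcpt4 (log2 -1.65, adjusted p = 0.0130) and Cma1 (log2 -1.30, adjusted p = 0.0239), both mast cell chymases, fell. In lung 7 were tested and Gzma, a killer-cell granzyme, fell (log2 -3.78, adjusted p = 0.00872), while Gzmb had a log2 change of -1.50 that did not pass (adjusted p = 0.113).

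Ctss encodes cathepsin S, which trims the invariant chain in antigen-presenting cells. In lung it was at 109, 152 and 148 CPM in controls and 136, 132, 263, 140 and 49.5 CPM in tumour-bearing libraries. Tumour-bearing library 3 was above and library 5 below all controls, and the change was near 0 (log2 0.08, SE 0.42, adjusted p = 0.882), turning to -0.25 without library 3. Over the same libraries the summed macrophage markers fell from 4951 to 5118 CPM to 412 to 1008 CPM, but this fall was that of 1 gene, Lyz2 (4685 to 302 CPM in the group means). The other 9 markers summed to 354 to 375 CPM in controls and 331 to 516 CPM in tumour-bearing libraries, and the list's median log2 change was -0.05. Mrc1 rose, Mertk, Csf1r, Adgre1 and Lyz2 fell, and the other 5 did not pass. In muscle Ctss was at 3.63, 3.39 and 3.69 CPM in controls and 7.22, 4.50 and 5.37 CPM in tumour-bearing libraries, above every control but not called (log2 0.68, SE 0.29, adjusted p = 0.134). Macrophage markers there summed to 83.0 to 105 CPM in controls and 81.0 to 126 CPM in tumour-bearing libraries, with a median log2 change of -0.33 over the 10. Of these, 1 was called, Cd68, whose groups overlapped (1.72 to 2.43 CPM in controls, 2.32 to 28.6 CPM in tumour-bearing libraries), and Csf1r, C1qa, C1qc and Adgre1 lay below every control without passing. Genes of the alveolar macrophage list were low in muscle, and their sum rose from 3.87 to 6.50 CPM to 15.3 to 25.2 CPM (3 of 4 tested higher). Car4 led this list in control muscle, where Marco had 0 counts. Without Car4 the sum went from 1.38 to 2.28 CPM to 8.34 to 17.3 CPM. Whether the list marks such macrophages in muscle was not tested. Neutrophil markers rose from 0.537 to 1.25 CPM to 4.79 to 5.22 CPM (3 of 3 tested higher). Which cells held these genes, and their part in the muscle values of Ctss and Ctsl, was not tested.

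Ctsw encodes cathepsin W of natural killer and cytotoxic T cells. Muscle held 6, 1 and 1 counts of it in controls and 0, 1 and 0 in tumour-bearing libraries, too few to test. In lung it was at 2.69, 3.20 and 2.76 CPM in controls and 2.59, 3.41, 3.61, 0.642 and 0.245 CPM in tumour-bearing libraries. Libraries 4 and 5 were well below and libraries 2 and 3 above the controls, with no change called (log2 -0.45, SE 0.73, adjusted p = 0.616). Summed killer-cell markers stood at 20.7 to 23.5 CPM in control lung and at 5.11, 2.12, 14.1, 1.37 and 1.03 CPM in tumour-bearing libraries 1 to 5 (4 of 6 markers lower). Libraries 4 and 5 were the lowest in both, while library 2 was low in the markers and above the controls in Ctsw. The part of cell numbers in Ctsw was not tested.

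Ctsh encodes cathepsin H, an aminopeptidase that helps process surfactant protein B in alveolar type 2 cells. In lung it was at 259, 267 and 260 CPM in controls and at 292, 231.5, 341, 445 and 184 CPM in tumour-bearing libraries. Libraries 1, 3 and 4 lay above and libraries 2 and 5 below the controls, and no change was called (log2 0.19, SE 0.27, adjusted p = 0.565). All 9 alveolar type 2 markers were called lower in the same comparison, with a median log2 change of -4.45. In muscle Ctsh was at 7.03, 7.88 and 8.06 CPM in controls and at 4.40, 3.47 and 6.37 CPM in tumour-bearing libraries, below every control and not called (log2 -0.69, SE 0.31, adjusted p = 0.139).

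**Figure D4:**
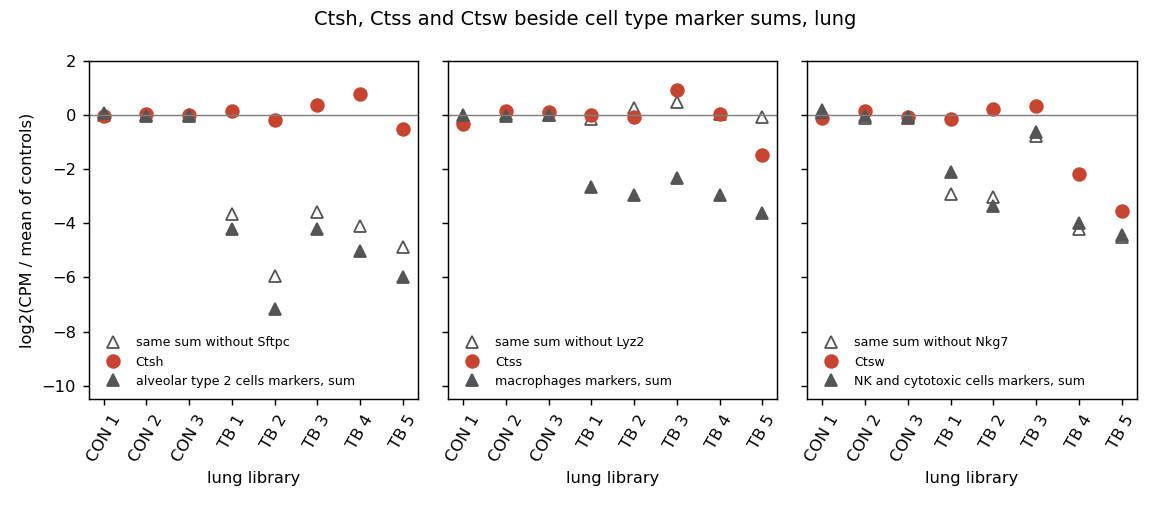
Log2 ratio of CPM to the control mean (y axis) for Ctsh, Ctss and Ctsw (circles) and for the summed markers of alveolar type 2 cells, macrophages and killer cells (filled triangles) in each lung library (x axis, 3 control and 5 tumour-bearing), with open triangles for the sum without its leading gene in controls (Sftpc, Lyz2 or Nkg7). Alveolar type 2 and killer-cell sums stay low without that gene, while the macrophage sum without Lyz2 returns to the control level, where most Ctss circles also lie.

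Ctsk encodes cathepsin K, the collagen-degrading enzyme of osteoclasts, also made by fibroblasts and some macrophages. In lung it was at 13.8, 25.2 and 24.6 CPM in controls and 14.3, 13.8, 12.6, 43.8 and 5.60 CPM in tumour-bearing libraries. Library 4 stood far above and library 5 far below the other 3, among which control library 1 lay, and the groups overlapped (log2 -0.24, SE 0.56, adjusted p = 0.737). Without library 4 the change was -0.85 and still not called (adjusted p = 0.0799). Summed alveolar macrophage markers, in the same order, were 489, 1284 and 1315 CPM and 290, 354, 353, 1183 and 61.1 CPM. The 3 libraries highest in Ctsk and the 1 lowest were also the 3 highest and the lowest in these markers, an order that rests on Chil3, which leads the sum. Without Chil3 the other 5 markers summed to 229 to 244 CPM in controls and 19.1 to 74.3 CPM in tumour-bearing libraries, where library 4 was still the highest and library 5 the lowest of the tumour-bearing 5. The part of these cells in Ctsk was not tested. Fibroblast markers went from 1609 to 1670 CPM in control lung to 540 to 1914 CPM (3 of 8 lower). The osteoclast list went from 8.64 to 13.5 CPM to 22.0 to 65.9 CPM, with Ocstamp and Acp5 higher and Calcr, the calcitonin receptor that defines mature osteoclasts, lower and at no more than 0.0207 CPM in any tumour-bearing library. In muscle, Ctsk was at 2.90, 2.73 and 3.35 CPM in controls and 1.64, 0.540 and 3.59 CPM in tumour-bearing libraries (log2 -0.65, SE 0.57, adjusted p = 0.426), where 6 of 8 fibroblast markers fell.

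The make-up of cysteine cathepsin RNA was compared per length, as each member's share of the summed TPM of all 10. In control muscle Ctsb held the largest share, 30.3% to 33.7%, and Ctsl 14.2% to 19.4%. In tumour-bearing muscle Ctsl held 81.2%, 30.5% and 39.9% in libraries 1 to 3, and Ctsb 8.44% to 24.8%. All 3 shares of Ctsl were above the control range. In lung, Ctsl held 14.6% to 16.8% in controls and 18.3% to 51.0% (median 24.8%) in tumour-bearing libraries, again above every control. Ctsh, the largest share in control lung at 24.5% to 26.8%, ran from 13.2% to 28.5%. The summed TPM of the 10 was 54.8 to 117 in control muscle, 115 to 714 in tumour-bearing muscle, 1159 to 1193 in control lung and 928 to 1361 in tumour-bearing lung.

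**Figure D5:**
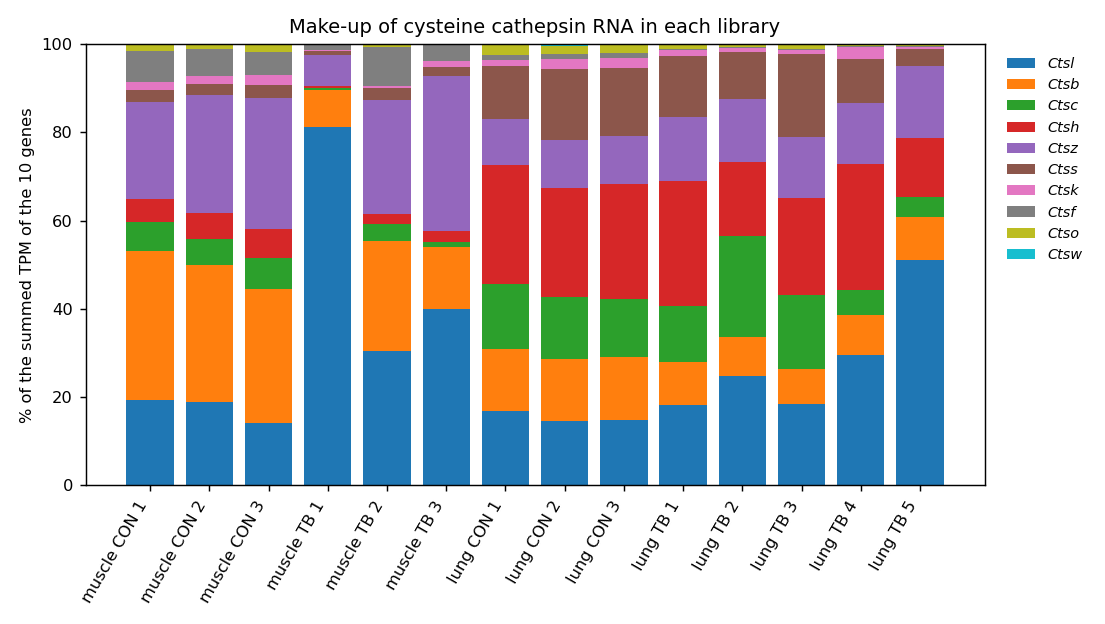
Share of each cysteine cathepsin in the summed TPM of the 10 genes, in percent (y axis), stacked for each of the 14 libraries (x axis). The Ctsl segment at the base runs from 14.2% to 19.4% in control muscle and reaches 81.2% in tumour-bearing muscle library 1 and 51.0% in tumour-bearing lung library 5.

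Between control tissues, 5 of the 10 members were called higher in lung and none lower, where 62.5% of 19834 genes were called (37.9% higher and 24.6% lower in lung). This comparison and the difference of tumour effects share control libraries with those above. Ctss (log2 3.76, SE 0.46), Ctsh (3.60, SE 0.32), Ctsc (2.37, SE 0.52) and Ctso (1.67, SE 0.35) were called, as was Ctsw, which had 6, 1 and 1 counts in muscle and 2.69 to 3.20 CPM in lung. Their adjusted p-values ran from 3.96e-07 to 0.00363. Ctsw, too low to test in muscle, passed the count filter of this fit only through lung, where it is higher. Its call is therefore no separate support, though the count of 5 and the median below include it. Ctsl (0.57, adjusted p = 0.327), Ctsb (-0.07), Ctsf (-0.67), Ctsk (1.33) and Ctsz (0.07) did not pass. The median over the members was 1.50, against 0.51 over all genes. These values depend on how the 2 tissues were scaled. Ctsf was called lower in lung under 9 of 25 alternatives, among them RLE scaling (-0.87), DESeq2 (-0.87), voom (-0.68) and controls alone (-0.96, adjusted p = 5.70e-04). Ctsb was called lower with controls alone (-0.35, adjusted p = 0.0235). On log2(TPM + 1) all 10 members were called higher in lung, with Ctsl at 3.60 (adjusted p = 8.90e-04), while Ctsb and Ctsf turned to 2.67 and 1.26 on a scale where all genes had a median of 1.47.

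The libraries were also searched for genes that moved most like Ctsl, by the root-mean-square difference in log2 CPM after centring each gene on its own mean. Over all 14 libraries the 5 nearest of 12401 genes were Hs6st1 (0.33), a heparan sulfate sulfotransferase, Ddx27 (0.41), a nucleolar RNA helicase, Brms1 (0.42), Akt1 (0.43), the kinase downstream of insulin signalling, and Utp4 (0.45), a ribosome assembly factor. The median gene was at 1.43. Of the other members, Ctsz ranked 460 (0.77) and Ctsb 2606 (1.06), and the remaining members tested ranked lower. Over the 6 muscle libraries alone the nearest of 12639 genes were Ranbp9 (0.14), Foxk1 (0.15), Map3k8 (0.16), Tsr1 (0.16) and Abca4 (0.16), where Ctss, the nearest member, ranked 2338 (0.99). That the first 5 were called higher in both tissues, as Ctsl was, follows from how they were picked. Of the 5 muscle neighbours, Tsr1 was called higher in lung (log2 1.19), and Ranbp9 (-0.59), Foxk1 (-0.76), Map3k8 (-1.98) and Abca4 (-2.44) were called lower there.

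Other proteases of the same compartment were followed by lists. Beside their calls stand those over all genes tested, 15.3% in muscle (8.53% higher, 6.75% lower) and 59.7% in lung (30.4% higher, 29.3% lower). Of the aspartic and serine cathepsins, Ctsd, the main aspartic protease of lysosomes, had a log2 change of 0.95 in muscle (adjusted p = 0.0646) and rose from 447 to 1007 CPM in lung (log2 1.17, adjusted p = 0.00321). Ctse, an aspartic protease of gastric and immune cells, rose in lung from 1.08 to 205 CPM (log2 7.56, adjusted p = 5.10e-05), and Ctsa, the serine carboxypeptidase, had 0.23 in muscle (adjusted p = 0.519). In all, 0 of 2 tested passed in muscle and 2 of 4 in lung, both higher. Of other papain-family genes, Tinagl1 (1.13, adjusted p = 0.0861) and Blmh (-0.39, adjusted p = 0.317) did not pass in muscle. In lung, Blmh, the cytosolic bleomycin hydrolase, rose (0.64, adjusted p = 0.0309) and Tinag had -0.87 (adjusted p = 0.247). Ctsll3 and the placental cathepsins, 9 close relatives of Ctsl in all, had 0 counts in muscle and control lung. In tumour-bearing lung, Cts3 reached at most 6 counts in a library, Ctsm 2 and Ctsq 1.

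Of the inhibitors, none of 5 tested passed in muscle, where their median log2 change was 0.69 (Cst6 log2 0.86, adjusted p = 0.0863, and Ctla2a, which resembles the propeptide of these enzymes, log2 1.32, adjusted p = 0.101). In lung 2 rose and 1 fell of 7, a smaller share than the 59.7% of all genes called there, with a median of -0.59. The intracellular stefin Cstb rose from 38.1 to 216 CPM (log2 2.50, adjusted p = 2.63e-05), and the secreted cystatin Cst3 fell from 542 to 244 CPM (log2 -1.15, adjusted p = 2.88e-04). Stfa2l1 also rose, one of a set of near-identical stefin copies whose split of reads is uncertain. Of the 7 activation and sorting genes, Gnptg, a subunit of the enzyme that builds the mannose 6-phosphate tag, rose in muscle (log2 0.89, adjusted p = 0.0485), and M6pr, a receptor for the tag, had 0.68 (adjusted p = 0.145), with a median of 0.32 over the 7. In lung 1 rose and 3 fell, a share of the list close to the 59.7% of all genes called there, with a median of -0.55. Among those that fell were the sorting receptor Sort1, from 318 to 32.9 CPM (log2 -3.27, adjusted p = 4.55e-04), and Gnptab (log2 -0.71, adjusted p = 0.0111).

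Tfeb, a transcription factor for lysosomal genes, rose in muscle from 50.0 to 105 CPM (log2 1.07, adjusted p = 0.0435) and fell in lung from 19.9 to 7.91 CPM (log2 -1.33, adjusted p = 1.14e-04). Its relative Mitf had 0.45 in muscle (adjusted p = 0.379) and fell in lung (log2 -2.26, adjusted p = 4.65e-04). These made 1 of 4 regulators higher in muscle and 2 of 5 lower in lung, with no other calls. Of all genes tested, 8.53% were called higher in muscle and 29.3% lower in lung. Of 11 lysosome membrane genes, 2 rose in muscle, the proton pump subunit Atp6v1h (log2 1.79, adjusted p = 0.0322) and the cholesterol transporter Npc1 (log2 2.04, adjusted p = 0.0462). In lung 2 rose and 1 fell, a smaller share than the 59.7% of all genes called there. Cd63 was at 1.52 (adjusted p = 1.79e-04) and Scarb2, the receptor that carries glucocerebrosidase, at -2.44 (adjusted p = 3.81e-06).

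Of 16 muscle atrophy genes, the class with which Ctsl is usually grouped, 13 rose and none fell in muscle. Of all genes tested there, 8.53% rose and 6.75% fell. The median log2 change of the list was 2.24 beside -0.03 over all genes. Among the 13 were Eif4ebp1, a brake on translation (log2 3.98, adjusted p = 0.00407), and Gadd45a (log2 3.08, adjusted p = 0.00636). In lung 2 rose and 8 fell, a share of the list close to the 59.7% of all genes called there, with Cebpd at -4.05 (adjusted p = 2.78e-06) and Klf15, a glucocorticoid-induced factor, at -5.48 (adjusted p = 1.92e-04). For MHC class II presentation, which Ctsl, Ctss and Ctsf serve, 1 of 9 tested genes rose in muscle (median log2 change 0.14), the lysosomal thiol reductase Ifi30 (log2 2.72, adjusted p = 0.00951), and H2-DMb2 had 0.97 (adjusted p = 0.155). In lung none of 11 rose and 5 fell (median -1.63), where 30.4% of all genes tested rose and 29.3% fell. Among the 5 were H2-Ob (log2 -4.21, adjusted p = 9.26e-04) and H2-Oa (log2 -1.99, adjusted p = 0.0168), the chains that modulate peptide loading. The list summed to 2406 to 2491 CPM in control lung and to 2192 CPM in tumour-bearing library 3. Tumour-bearing libraries 1, 2, 4 and 5 had 266 to 717 CPM.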

How the data were processed

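Per the submitters' processing notes, reads of 100 bases were handled with Trim Galore, STAR 2.7.9a and RSEM 1.3.3, and the libraries came from a strand-preserving kit, per the labels. Neither these tools' options, nor whether counting used strand, nor the build and annotation are stated there, so gene coordinates are not printed. The authors deposited, for each library, RSEM expected counts, which are estimates and were rounded to whole numbers here. They also deposited TPM, abundances per effective length scaled to a common total, and the mean transcript length of each gene. RSEM splits reads shared by similar genes, so near-identical copies are uncertain.

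Each tissue was fitted alone in R 4.3.3 with edgeR 4.0.16 (TMM, filterByExpr, glmQLFit, two-sided glmQLFTest, Benjamini-Hochberg over all genes tested, threshold 0.05). Control lung against control muscle and the interaction of tissue and tumour came from 1 fit of all 14 libraries. SE is the absolute log2 change divided by the square root of F. All members were named, with the 2 genes of smallest unadjusted p in each pathway list and tissue and the 5 genes nearest to Ctsl in each of both searches. Genes named besides these were chosen after their values were seen. The members and lists were chosen with earlier results of these data known. Symbols matched 52083 of 55416 identifiers. Alternatives were RLE and upper-quartile scaling, removal of mitochondrial genes, DESeq2 1.42.0, limma-voom and limma-trend on log2(TPM + 1) (limma 3.58.1), either no count filter or a minimum mean of 1 CPM, a robust fit, a replicate block, other sets of libraries in the fit and leaving out each library. The fits were also run on simulated counts with known changes and the same spread for every gene, which need not match the spread of these libraries. Every pair of replicates differed by more than sampling noise (chi-square over degrees of freedom 19.5 to 437), and each counted as its own sample.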

Additional observations from a re-analysis of the deposited data

Results flagged for a closer look

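Ctsk, the collagenase of osteoclasts, had 43.8 CPM in tumour-bearing lung library 4, a gap to the next of the 5 libraries (14.3 CPM) that is large against the range of the group. Sets of 4 to 10 libraries were examined in this way for the 10 members in tumour-bearing lung, and chance marks about 1 set in 20. Without this library the lung minus muscle difference of Ctsk went from 0.44 to -0.19 on the log2 scale, neither of them called.

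Ctsf, which encodes cathepsin F, differed between the tissues in its tumour effect, with lung minus muscle at -3.09 on the log2 scale (SE 0.41, adjusted p = 7.30e-05 for the interaction in edgeR's quasi-likelihood test). All 5 tumour-bearing lung libraries lay below their controls and all 3 tumour-bearing muscle libraries above theirs.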

How the results depend on the processing

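Depth limited Ctsw in muscle (at most 6 counts). On log2(TPM + 1), Ctsl did not pass in muscle (2.74) or lung (0.73) and passed between control tissues (3.60), and 0 members were called in muscle, 10 between controls and 2 for the interaction. Without 1 library, muscle Ctsl ran from 1.69 to 3.05, muscle member calls from 0 to 4 and interaction calls from 1 to 2. Genes called in muscle were 2196 in the fit reported, 3657 in DESeq2, 415 on TPM, 4031 with no filter, 3459 in the 14-library fit and 106 to 4513 without 1 library. Control libraries alone gave 8 member calls between tissues, with Ctsb and Ctsf lower in lung. Whether replicate numbers pair the libraries was not settled. Same-number correlations were 0.36, -0.05 and 0.37 in muscle, where those between different numbers ran from -0.41 to 0.07. With so few libraries, each centred on its group mean, these values cannot decide the question. In lung the same-number values were 0.04, 0.06 and -8.3e-04. Not every library correlated best with its own number. The replicate block gave 3303 genes in muscle and 2 interaction members, and signs turned for lung Ctsw (0.14) and for the interaction of Ctso (0.018) and Ctsz (-0.056).

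Of 1003 comparisons of a result with an alternative, 903 were unchanged. For a gene this means the same direction and call, and for a count of genes called a similar size. Another 24 were counts that moved further, and 38 changed sign, all of values not called in the fit reported. In muscle Ctsb turned with the upper quartile (-0.064), and it ran from -0.12 to 0.36 without 1 library. In lung, TPM turned Ctsc (-0.44), Ctsh (-0.34) and Ctss (-0.53), voom turned Ctsc (-0.017) and Ctss (-0.089), and the upper quartile turned Ctss (-0.0054). Without 1 lung library, Ctsc ran from -0.056 to 0.48, Ctsk from -0.85 to 0.022 and Ctss from -0.25 to 0.33. Between controls, TPM turned Ctsb (2.67) and Ctsf (1.26), no filter turned Ctsb (0.058), and Ctsz turned with RLE (-0.14), DESeq2 (-0.14), the upper quartile (-0.16), the 1 CPM minimum (-0.032) and controls alone (-0.22). Without 1 library, Ctsb there ran from -0.14 to 0.037. For the interaction, TPM turned Ctsk (-0.47), Ctsw (-0.77) and Ctsz (-0.50), and no filter turned Ctsz (-0.0056). Without 1 library the interaction ran from -0.19 to 1.18 for Ctsk, -0.40 to 0.15 for Ctso and -0.19 to 0.31 for Ctsz. The cause was not tested.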
